A study of Mus musculus with 8 samples.

Results

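The Hippo pathway genes described here are the 10 genes *Lats1*, *Lats2*, *Stk3*, *Stk4*, *Sav1*, *Nf2*, *Frmd6*, *Amotl1*, *Amotl2* and *Ptpn14*. They were found by gene symbol among the 23467 genes of the deposited table, in all 8 libraries, and the selection sets no threshold on a measured value. These genes, and the further pathway genes below, were nevertheless chosen with earlier results of these data known. RNA was sequenced from hepatoblasts, the fetal precursors of hepatocytes and biliary epithelial cells (BECs), taken from E14.5 mouse livers of a mixed B6;129 background and cultured on collagen (iHBs). Further libraries were of hepatoblasts turned towards hepatocytes with 12.5 ng/ml oncostatin M for 5 days (iHPs) or towards BECs on Matrigel for 14 days (iBECs). Control cells were wild type, and L1L2_Alb cells carried the genotype Lats1-/-;Lats2f/fl;Alb-cre, in which *Lats1* is lost in every cell and *Lats2* is to be removed by a recombinase that the albumin promoter drives in hepatoblasts and hepatocytes. There was 1 control and 1 L1L2_Alb library of iHBs, 1 control and 2 L1L2_Alb libraries of iHPs, and 1 control and 2 L1L2_Alb libraries of iBECs. The comparison asks which genes of the pathway differed in RNA level when the *Lats* kinases were targeted, and in which culture stage.

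In the Hippo pathway, the MST kinases, encoded by *Stk3* and *Stk4*, act with the scaffold SAV1 to activate the LATS kinases. The LATS kinases phosphorylate the co-activators YAP and TAZ, which are then kept in the cytoplasm or degraded. Merlin, the product of *Nf2*, and FRMD6 are membrane proteins of the FERM family that promote LATS activation, whereas angiomotin-like proteins and the phosphatase PTPN14 bind YAP directly and hold it away from the nucleus. Unphosphorylated YAP and TAZ act with TEAD transcription factors, and several genes they switch on, *Lats2* and *Amotl2* among them, encode inhibitors of YAP and TAZ, which is known as negative feedback. In the liver the pathway restrains the growth of hepatocytes and of biliary cells.

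Values are RPKM, read counts divided by transcript length and by sequencing depth. The libraries held 18436865 to 33229075 reads by the steps between low values. For 8 of the 10 genes whole reads could be recovered, 451 to 36489 per library. The 95% counting interval that was widest for its value was that of *Stk3* in the iHP control. It ran from 5.04 to 6.07 RPKM around 5.53 RPKM, for counting error only. At least 6 of 7 hepatocyte and hepatoblast markers and all 6 biliary markers were above 1 RPKM in every library, iHBs included. The hepatocyte and hepatoblast markers summed to 12042 RPKM in the iHB control and 13361 RPKM in L1L2_Alb iHB. Their sum was 16477 RPKM in the iHP control against 12561 and 10321 RPKM. In iBEC it was 17206 RPKM in the control against 13552 and 11899 RPKM. Markers went both ways. *Hnf4a* was below the control of its stage in all 5 L1L2_Alb libraries, at 48.4 against 20.2 RPKM in iHB. In iHB *Alb* was at 2485 RPKM in the control and 524 RPKM in L1L2_Alb, and *Apoa1* at 2451 and 8670 RPKM. The 8 mesenchymal markers, above 1 RPKM in every library, summed to 3941 RPKM in the iHB control and 1247 RPKM in its L1L2_Alb library, and to 2441 RPKM in the iHP control against 664 and 1041 RPKM. In iBEC their sum was 2554 RPKM in the control against 3591 and 1605 RPKM, so it was lower in the L1L2_Alb libraries of iHB and iHP and lay on either side of the control in iBEC. The biliary keratin gene *Krt7* was above the control of the stage in all 5 L1L2_Alb libraries, at 400 against 1470 RPKM in iHB, 361 against 1361 and 1167 RPKM in iHP, and 62.3 against 319 and 568 RPKM in iBEC, and so was *Krt19*. The summed macrophage markers ran from 1083 to 1967 RPKM in controls and from 593 to 2597 RPKM in L1L2_Alb libraries, and the erythroid markers from 2.86 to 108 RPKM and from 1.79 to 22.3 RPKM. By stage, the macrophage sum was 1967 RPKM in the iHB control against 1577 RPKM. It was 1206 RPKM in the iHP control against 593 and 1181 RPKM, and 1083 RPKM in the iBEC control against 2437 and 2597 RPKM. The erythroid sum was 108 RPKM in the iHB control against 22.3 RPKM. It was 70.1 RPKM in the iHP control against 6.82 and 15.7 RPKM, and 2.86 RPKM in the iBEC control against 1.79 and 3.25 RPKM. The endothelial markers were at most 5.71 RPKM in sum. The part of these cells in the differences below was not tested, and in bulk RNA fewer cells of a type cannot be told apart from less RNA per cell.

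Across the 3 stages, 4 of the 10 Hippo genes rose in the libraries labelled L1L2_Alb and none fell. They were *Amotl1*, *Amotl2*, *Ptpn14* and *Lats2*, with fitted increases between 0.90 and 1.51 on the log2(RPKM + 1) scale. The test was limma with the stage as a block and 4 residual degrees of freedom, and a call required an adjusted p under 0.05 over the 13421 genes whose mean reached 1 RPKM, a minimum that all 10 genes passed. By the same rule 9.57% of all genes tested were called, 6.2% as higher and 3.37% as lower. After upper-quartile scaling 586 genes were called higher and 605 lower, and after quantile normalization 688 and 616, against 832 and 452 in the values as deposited. Either scaling left 3 Hippo genes called, all higher, with *Lats2* not called after upper-quartile scaling and *Amotl2* not called after quantile normalization. The fitted change was positive for 9 of the 10 genes and negative for *Nf2*, with a median of 0.68 against 0.06 over all genes tested. For 6 of the 10 genes all 5 L1L2_Alb libraries were above all 3 controls, which held for 9.18% of all genes tested. With 8 of the 10 genes all 5 L1L2_Alb libraries were above the control of their own stage, against 22.9% of all genes. The exceptions were *Lats1* and *Nf2*.

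Promoter sequences of the 4 genes that rose are shown, with or without a match, and that of *Sav1*, which did not pass the test but is the remaining gene with a match, because YAP and TAZ reach DNA through TEAD factors, whose core motif is GGAATG, read as CATTCC on the opposite strand. Each window runs from 250 bases before to 50 bases after the start of transcription, on the gene's own strand and 5′ to 3′, as RefSeq gives it for GRCm38.p6, and capitals mark the motif. *Amotl2* lies at chr9:102717554-102717853 on the plus strand, *Ptpn14* at chr1:189728018-189728317 on the plus strand, *Sav1* at chr12:69986953-69987252 on the minus strand, *Lats2* at chr14:57746074-57746373 on the minus strand and *Amotl1* at chr9:14614951-14615250 on the minus strand.
Amotl2: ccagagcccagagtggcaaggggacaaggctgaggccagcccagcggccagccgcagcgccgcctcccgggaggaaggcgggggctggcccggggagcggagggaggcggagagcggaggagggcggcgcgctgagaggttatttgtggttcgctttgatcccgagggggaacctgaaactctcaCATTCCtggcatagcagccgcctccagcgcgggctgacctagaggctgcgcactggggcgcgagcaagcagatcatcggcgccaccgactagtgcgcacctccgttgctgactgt
Ptpn14: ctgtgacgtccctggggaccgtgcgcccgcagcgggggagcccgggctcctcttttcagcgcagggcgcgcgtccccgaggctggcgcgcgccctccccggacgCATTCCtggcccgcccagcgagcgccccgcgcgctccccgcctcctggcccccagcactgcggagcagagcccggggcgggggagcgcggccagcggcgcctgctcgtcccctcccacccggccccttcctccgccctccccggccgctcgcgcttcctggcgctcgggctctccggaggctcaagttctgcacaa
Sav1: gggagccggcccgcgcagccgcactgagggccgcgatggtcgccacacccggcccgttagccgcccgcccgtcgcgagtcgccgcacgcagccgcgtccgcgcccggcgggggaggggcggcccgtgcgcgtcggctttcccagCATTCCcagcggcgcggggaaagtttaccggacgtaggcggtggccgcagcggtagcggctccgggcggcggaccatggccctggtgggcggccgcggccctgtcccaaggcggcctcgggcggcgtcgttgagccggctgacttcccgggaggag
Lats2: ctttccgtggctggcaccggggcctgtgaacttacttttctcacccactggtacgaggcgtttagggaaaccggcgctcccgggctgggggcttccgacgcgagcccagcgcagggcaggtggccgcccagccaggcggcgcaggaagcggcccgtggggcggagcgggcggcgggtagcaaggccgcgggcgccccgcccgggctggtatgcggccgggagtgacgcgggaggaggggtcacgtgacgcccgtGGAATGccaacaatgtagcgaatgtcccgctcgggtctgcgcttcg
Amotl1: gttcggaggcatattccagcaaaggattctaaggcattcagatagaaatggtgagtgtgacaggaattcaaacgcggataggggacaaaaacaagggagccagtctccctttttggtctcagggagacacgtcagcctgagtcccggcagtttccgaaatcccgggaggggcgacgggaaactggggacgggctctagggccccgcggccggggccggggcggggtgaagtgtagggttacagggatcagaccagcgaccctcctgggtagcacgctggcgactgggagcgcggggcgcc
The motif begins at base -65 of *Amotl2*, at -146 of *Ptpn14*, at -106 of *Sav1* and at +5 of *Lats2*, in each case once. *Amotl1*, which had the smallest p of the 10 genes, has no match in its window. Neither have *Stk4*, *Lats1*, *Frmd6*, the other window of *Lats2* and both windows of *Nf2*, and *Stk3* was not matched in the table. Windows with a match were 4 of 11 for these genes and 14.7% of the 32851 promoters in the table, on either strand. A match describes the letters in the window and not a site in use.

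The targeted genes come first. *Lats1*, which encodes a kinase that phosphorylates YAP and TAZ, measured 10.6 RPKM in the iHB control and 13.9 RPKM in the iHB library labelled L1L2_Alb. It was at 11.2 RPKM in the iHP control against 22.7 and 7.12 RPKM, and at 5.38 RPKM in the iBEC control against 9.69 and 9.91 RPKM. Reads of *Lats1* were thus present in every library of the Lats1-/- genotype, above the control of the stage in 4 of 5 and below it in L1L2_Alb iHP replicate 2. The 2 L1L2_Alb iHP libraries differed by 1.55 in log2(RPKM + 1), more than 97.1% of genes do in that pair. Its fitted change of 0.44 (standard error 0.335) was not called (adjusted p = 0.46 from limma) and lay within the spread between libraries.

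*Lats2*, which encodes the paralogous kinase and is a target of YAP and TAZ, was at 9.23 RPKM in the iHB control and 19.7 RPKM in L1L2_Alb iHB. In iHP the control had 10.1 RPKM and the L1L2_Alb pair 17.7 and 27.6 RPKM, and in iBEC the control had 6.90 RPKM against 10.9 and 12.4 RPKM. Every L1L2_Alb library was above every control, and the increase of 0.90 (standard error 0.203) passed the test (adjusted p = 0.0312, limma). The values cover the whole gene and the sources used here do not say which exons the alleles lose, so neither gene's level checks the deletion, and the libraries are given by their labels. The adjusted p of *Lats2* was 0.0568 with upper-quartile scaling, 0.0613 with no filter on low values, 0.0699 without L1L2_Alb iBEC replicate 2, and up to 0.146 when a whole stage was left out.

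**Figure D1:**
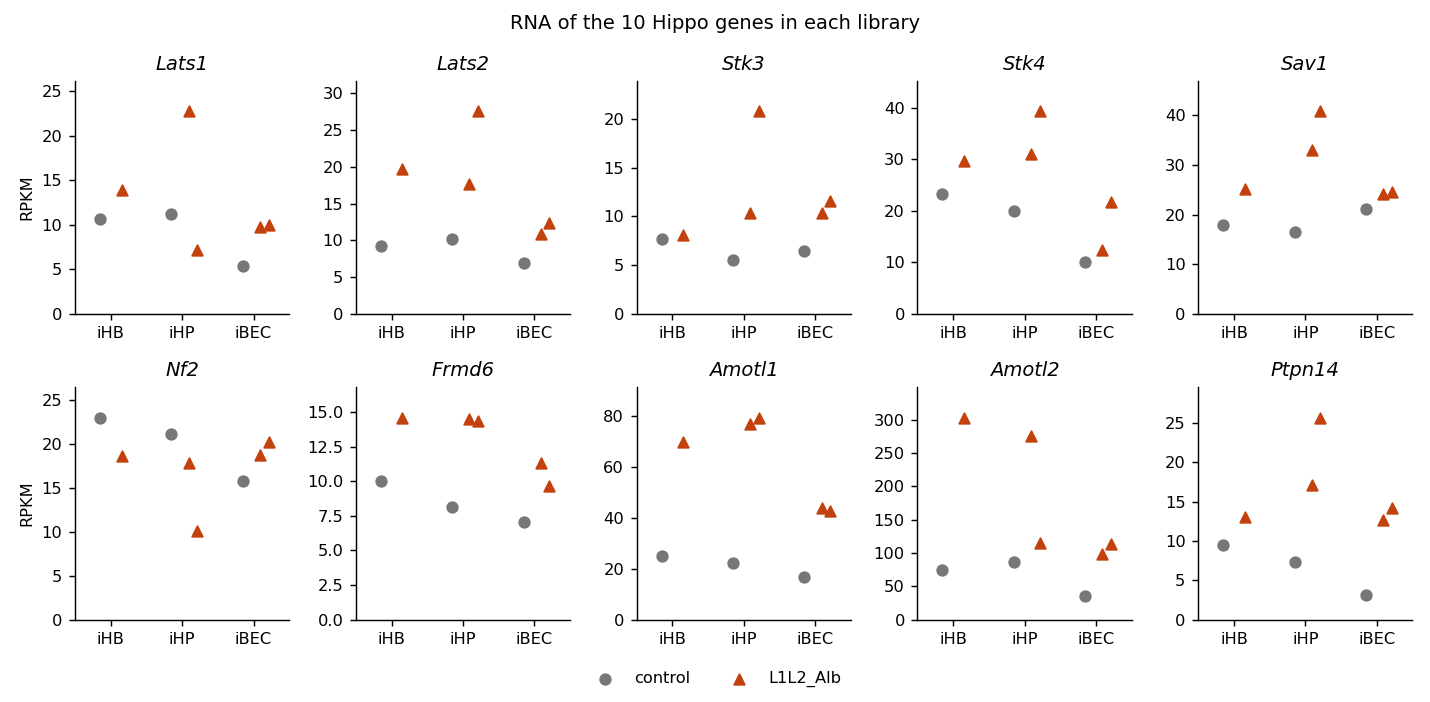
RPKM of each Hippo gene in each of the 8 libraries, 1 panel per gene with its own axis from 0, controls as grey circles and L1L2_Alb libraries as orange triangles, by culture stage. *Amotl1* separates into controls of at most 25.0 RPKM and L1L2_Alb libraries of at least 42.5 RPKM, whereas *Nf2* and *Lats1* overlap.

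The deposited *Lats2* value was not whole reads of a single transcript, but in every library it equalled the mean of the RPKM of 2 transcripts, of 5191 bases (the length of a *Lats2* transcript in GENCODE) and of 904 bases, each with whole reads. The identity of the shorter transcript was not checked, and longer multiples of its length give the same RPKM. The longer transcript was at 11.2 RPKM in the iHB control and 21.2 RPKM in L1L2_Alb iHB, at 10.7 RPKM in the iHP control against 18.4 and 26.9 RPKM, and at 8.04 RPKM in the iBEC control against 12.0 and 14.0 RPKM. The shorter was at 7.23 and 18.1 RPKM in iHB, at 9.64 RPKM in the iHP control against 17.0 and 28.2 RPKM, and at 5.76 RPKM in the iBEC control against 9.79 and 10.7 RPKM. Both recovered values were therefore higher in all 5 L1L2_Alb libraries, 1.49 to 2.52-fold for the longer transcript and 1.70 to 2.93-fold for the shorter. The counting method is not known, so reads in sequence common to both may count in each. The 2 values may then not be independent. At a length of 904 bases the shorter had only 173 to 544 reads per library, and a longer multiple would give more. With the longer transcript alone, the fitted increase of *Lats2* was 0.83 (adjusted p = 0.0351 from limma).

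**Figure D2:**
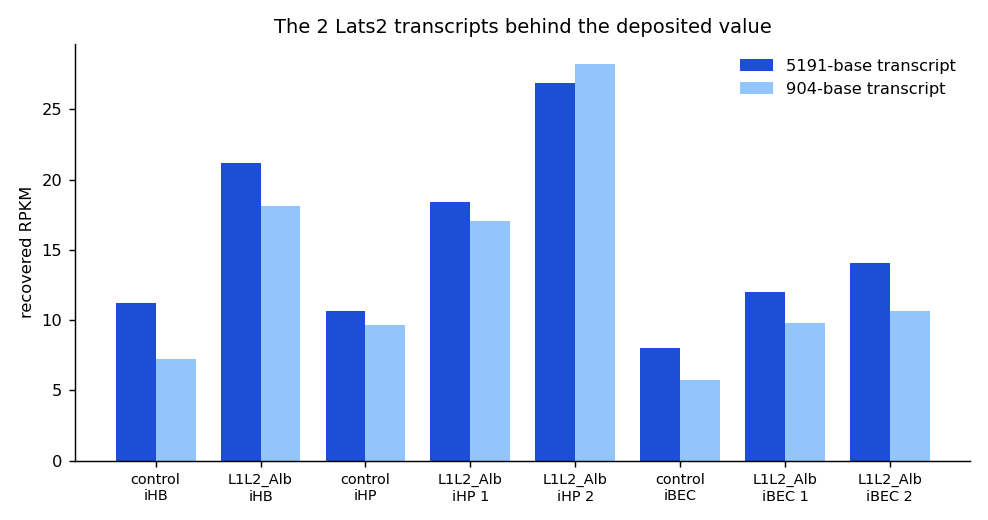
Recovered RPKM of the 5191-base and the 904-base *Lats2* transcript in each library, as bars from 0 without error bars since each is a single library. Both bars are higher in each L1L2_Alb library than in the control of its stage, and the shorter transcript exceeds the longer only in L1L2_Alb iHP replicate 2, at 28.2 against 26.9 RPKM.

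Of the genes whose products bind YAP, *Amotl1* and *Amotl2* of the angiomotin family gave the largest fitted increases among the 10. *Amot* of the same family, one of the further pathway genes examined below, was not called, at 0.72 (adjusted p = 0.111, limma). *Amotl1*, which encodes an angiomotin-like protein of cell junctions, was at 25.0 RPKM in the iHB control against 69.6 RPKM in L1L2_Alb iHB. It was at 22.2 RPKM in the iHP control against 76.5 and 79.2 RPKM, and at 16.9 RPKM in the iBEC control against 43.8 and 42.5 RPKM. The increase was 2.51 to 3.57-fold over the control of the stage, and the libraries of a pair differed by at most 0.05 in log2(RPKM + 1). The fitted change was 1.51 (standard error 0.160, adjusted p = 0.00225, limma), the 64th smallest p of the 13421 genes. *Amotl1* was called in the main fit and in all 16 alternatives, with an adjusted p of at most 0.0434.

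*Amotl2*, a YAP and TAZ target whose product both binds YAP and promotes its phosphorylation, was at 74.8 RPKM in the iHB control against 303 RPKM in L1L2_Alb iHB, a 4.06-fold difference. It was at 86.6 RPKM in the iHP control against 276 and 116 RPKM, and at 35.4 RPKM in the iBEC control against 98.8 and 113 RPKM. The lowest L1L2_Alb library was above the highest control, but the iHP pair was wide, 1.25 apart in log2(RPKM + 1), more than for 93.8% of genes. The fitted change was 1.49 (standard error 0.303, adjusted p = 0.0223, limma). The adjusted p was 0.0518 with quantile normalization, 0.0620 with no filter on low values and 0.0536 without L1L2_Alb iBEC replicate 2. Leaving out a stage gave adjusted p from 0.0378 to 0.121.

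*Ptpn14*, which encodes a cytoplasmic tyrosine phosphatase that binds YAP, was at 9.47 RPKM in the iHB control against 13.1 RPKM in L1L2_Alb iHB. It was at 7.29 RPKM in the iHP control against 17.2 and 25.7 RPKM, and at 3.16 RPKM in the iBEC control against 12.7 and 14.2 RPKM. The groups did not overlap, and the ratio to the control of the stage ran from 1.38 in iHB to 4.49 in iBEC. The fitted change was 1.28 (standard error 0.269, adjusted p = 0.0248, limma), with an adjusted p of 0.0641 with no filter on low values, 0.0659 with the pairs averaged, 0.0599 without L1L2_Alb iBEC replicate 2 and up to 0.167 without a stage.

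Among the upstream kinases and their scaffold, no gene passed the test, although each was higher than the control of its stage in 5 of 5 L1L2_Alb libraries. *Stk3*, which encodes MST2, was at 7.70 RPKM in the iHB control against 8.08 RPKM, at 5.53 RPKM in the iHP control against 10.4 and 20.8 RPKM, and at 6.40 RPKM in the iBEC control against 10.4 and 11.6 RPKM. Its groups did not overlap, yet the iHB libraries were nearly equal and a single iHP library stood at 3.76-fold. The fitted change was 0.73 (standard error 0.289, adjusted p = 0.152, limma).

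*Stk4*, which encodes MST1, was at 23.1 RPKM in the iHB control against 29.7 RPKM, at 19.9 RPKM in the iHP control against 30.9 and 39.3 RPKM, and at 9.94 RPKM in the iBEC control against 12.3 and 21.8 RPKM. Both groups were lowest in iBEC, so they overlapped across stages, and the fitted change was 0.62 (standard error 0.222, adjusted p = 0.118, limma). *Sav1*, whose product holds the MST kinases at LATS, was at 18.0 RPKM in the iHB control against 25.1 RPKM, at 16.5 RPKM in the iHP control against 32.9 and 40.8 RPKM, and at 21.2 RPKM in the iBEC control against 24.2 and 24.6 RPKM. The iHP libraries were the highest and the iBEC pair lay close to its control, 1.14 to 1.16-fold above it. The fitted change of *Sav1* was 0.60 (standard error 0.209, adjusted p = 0.112, limma).

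The membrane activators differed from each other in their values. *Frmd6*, which encodes a FERM protein related to Expanded of the fly, was at 9.99 RPKM in the iHB control against 14.6 RPKM, at 8.16 RPKM in the iHP control against 14.4 and 14.4 RPKM, and at 7.07 RPKM in the iBEC control against 11.3 and 9.64 RPKM. The ratios to the control of the stage had the narrowest range of the 10 genes, 1.36 to 1.77, but the fitted change of 0.59 (standard error 0.168) did not pass (adjusted p = 0.0641, limma). *Nf2*, which encodes the tumor suppressor Merlin, was at 23.0 RPKM in the iHB control against 18.7 RPKM, at 21.2 RPKM in the iHP control against 17.8 and 10.1 RPKM, and at 15.8 RPKM in the iBEC control against 18.8 and 20.2 RPKM. It was below the control in iHB and iHP and above it in iBEC, with a fitted change of -0.20 (standard error 0.246, adjusted p = 0.668, limma).

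**Figure D3:**
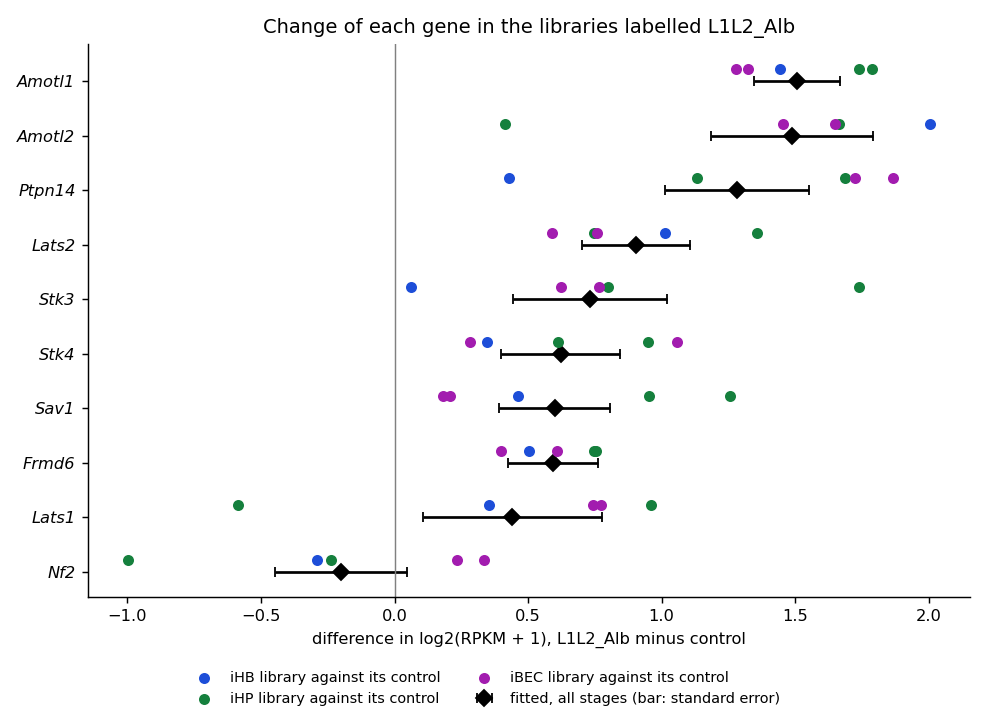
Difference in log2(RPKM + 1) between each L1L2_Alb library and the control library of its stage (coloured points) with the change fitted over all stages and its standard error (black), genes ordered by fitted change. Fitted changes run from 1.51 in *Amotl1* to -0.20 in *Nf2*, and only *Lats1* and *Nf2* have points below 0.

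**Figure D4:**
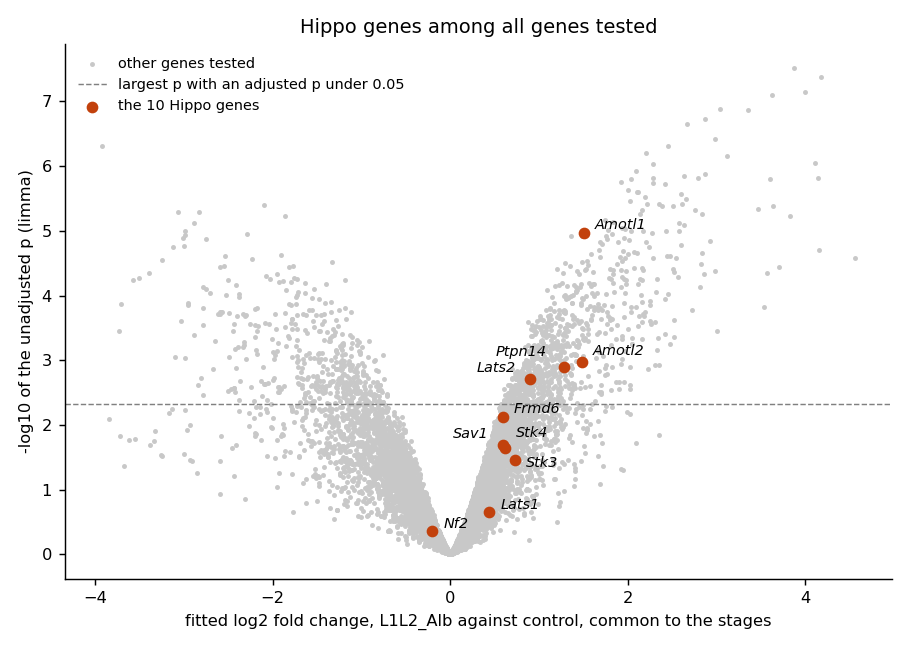
Fitted log2 fold change common to the stages (x axis) against -log10 of the unadjusted p from limma (y axis) for the 13421 genes tested, Hippo genes in orange and the dashed line at the largest p that was called. *Amotl1*, *Amotl2*, *Ptpn14* and *Lats2* lie above the line and the other 6 below it.

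Stage by stage, 0 of the 10 genes were called in iHB, 1 in iHP and 0 in iBEC, in limma contrasts of a fit of the 6 conditions with 2 residual degrees of freedom. The control of each stage is a single library, assumed to vary like the L1L2_Alb pairs. Over all genes 0.611% were called in iHB, 3.51% in iHP and 0.082% in iBEC. At an unadjusted p under 0.05 the counts among the 10 genes were 2, 5 and 3, against 10.6%, 18.7% and 8.53% of all genes. The gene called was *Amotl1* in iHP, with a change of 1.76 (standard error 0.329, adjusted p = 0.0383, limma). Its adjusted p was 0.0557 to 0.124 when any single L1L2_Alb library of iHP or iBEC was left out.

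The genes differed in the stage at which their fitted change was highest. *Amotl2* had its highest value in iHB, at 2.01 (standard error 0.617), against 1.04 in iHP, where the single libraries gave 1.66 and 0.41, and 1.55 in iBEC. *Ptpn14* went from 0.43 in iHB (standard error 0.448) to 1.41 in iHP and 1.80 in iBEC (standard error 0.388). *Amotl1* was at 1.44 in iHB, 1.76 in iHP and 1.30 in iBEC, and *Lats2* was at 1.01, 1.05 and 0.67. The values of *Stk3* were 0.06 in iHB, 1.27 in iHP and 0.69 in iBEC. *Sav1* was at 0.46, 1.11 and 0.20, and its iBEC value became -0.06 with upper-quartile scaling and -0.05 with quantile normalization. *Stk4* and *Frmd6* lay between 0.35 and 0.78 in all stages.

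None of these differences between stages passed a test. The moderated F test of limma on the difference of the genotype effect between stages called 0 of 13421 genes, 733 of which had an unadjusted p under 0.05, and none of the 10 genes was among those. The smallest unadjusted p among the 10 was 0.13 from limma, for *Ptpn14*. Library by library, the median change of the 10 genes was 0.45 in iHB, 0.88 and 1.10 in iHP, and 0.62 and 0.77 in iBEC. The median of all genes tested was -0.09, 0.01 and -0.03, and 0.22 and 0.26 in those libraries, so genes at large were also higher in the L1L2_Alb iBEC libraries. With upper-quartile scaling the iBEC medians were 0.41 and 0.51 for the 10 genes and 0.02 and 0.01 for all genes.

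Across the culture stages at equal genotype, 0 of the 10 genes passed in any of the 3 contrasts of the additive limma fit. For iHP against iHB 0 of all genes tested were called, 1158 had an unadjusted p under 0.05, and none of the 10 genes did. For iBEC against iHB 5.72% of all genes were called and for iBEC against iHP 4.12%, and 4 and 5 of the 10 genes had an unadjusted p under 0.05, against 25% and 22.2% of all genes. The fitted changes in iBECs against iHBs were negative for 8 of the 10 genes, with a median of -0.57 against -0.25 over all genes. *Amotl2* was at -1.27 (adjusted p = 0.0966, limma), *Stk4* at -0.97 (adjusted p = 0.0868) and *Amotl1* at -0.64 (adjusted p = 0.107). Against iHPs the median was -0.62 (-0.09 over all genes), and *Stk4* at -1.01 had the smallest adjusted p, 0.063 in limma. Without L1L2_Alb iHP replicate 2, *Amotl2* passed in iBECs against iHBs at -1.31 (adjusted p = 0.0111), and in iBECs against iHPs *Amotl2* at -1.35 (adjusted p = 0.0255) and *Lats1* at -1.02 (adjusted p = 0.0396) passed.

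By level per length, *Amotl2* was the most abundant of 8 genes in all 8 libraries, and *Amotl1* came after it in 7 of them, *Sav1* in the iBEC control. *Lats2* and *Nf2* are not among the 8, because their values were not of a single transcript with whole reads. The ratio of *Amotl1* to *Amotl2* RPKM was 0.334 in the iHB control and 0.229 in L1L2_Alb iHB. In iHP it was 0.257 in the control against 0.277 and 0.685, and in iBEC 0.478 against 0.444 and 0.375. The ratio was thus higher than in the control in the L1L2_Alb iHP pair and lower in the other L1L2_Alb libraries. The value of 0.685 is that of L1L2_Alb iHP replicate 2, in which *Amotl2* was at 116 RPKM.

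A list of 70 further Hippo pathway genes was examined in the same fit, of which 65 were tested. Of these, 14 rose and 1 fell in the L1L2_Alb libraries, against the 9.57% of all genes called, with a median change of 0.26. Without L1L2_Alb iHP replicate 1 the count was 9, and without the iHB or iHP stage it was 2 and 1. Genes of cell junctions and polarity made up 9 of the increases, out of 18 tested, with a median of 0.65. Of the scaffolds and kinase partners 3 of 23 rose, with a median of 0.09 and with 12 positive and 11 negative changes. Of the LATS and MST inhibitors and the phosphatase complex 2 of 24 rose and 1 fell, with a median of 0.22. Over all genes tested 6.2% were called higher and 3.37% lower.

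*Pard6b*, which encodes a subunit of the apical PAR polarity complex, had the largest increase of the list, 2.10 (standard error 0.185, adjusted p = 0.00118, limma). It was at 13.4 RPKM in the iHB control against 77.0 RPKM, at 13.9 RPKM in the iHP control against 48.2 and 61.8 RPKM, and at 4.66 RPKM in the iBEC control against 20.1 and 24.8 RPKM. Every L1L2_Alb library was above every control. Other polarity and junction genes that rose included *Llgl2*, a Lethal giant larvae homologue, by 1.23, the scaffold gene *Dlg1* by 1.12, the atypical cadherin gene *Fat1* by 1.08 and *Pals1*, listed as *Mpp5*, which encodes a Crumbs complex scaffold, by 1.00. Their adjusted p in limma ran from 0.00859 in *Dlg1* to 0.0256 in *Mpp5*.

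The kinase partners that rose were *Wwc1* and *Wwc2*, which encode KIBRA and its relative, and *Rassf6*, which encodes an MST-binding protein. *Wwc1* was at 54.1 RPKM in the iHB control against 111 RPKM, at 59.1 RPKM in the iHP control against 98.8 and 104 RPKM, and at 21.8 RPKM in the iBEC control against 48.6 and 64.2 RPKM. Its change was 1.04, that of *Wwc2* 1.19 and that of *Rassf6* 1.38, with adjusted p of 0.0124, 0.0165 and 0.0351 in limma. The gene that fell was *Stk26*, listed as *2610018G03Rik*, a kinase gene of the STRIPAK phosphatase complex. It was at 11.9 RPKM in the iHB control against 3.46 RPKM, at 8.76 RPKM in the iHP control against 2.95 and 2.55 RPKM, and at 4.90 RPKM in the iBEC control against 2.95 and 3.69 RPKM, a change of -1.09 (adjusted p = 0.0325, limma). Of these genes, *Rassf6*, *Stk26* and *Mpp5* had an adjusted p above 0.05 when some single L1L2_Alb libraries were left out, up to 0.0576 for *Rassf6*, 0.0648 for *Stk26* and 0.0572 for *Mpp5*. That of *Rassf6* was 0.0585 with upper-quartile scaling and 0.0549 with quantile normalization. Without the iHP stage it was 0.210, with 0.235 for *Stk26*, 0.159 for *Mpp5* and 0.111 for *Wwc2*. In that fit *Llgl2* was at 0.0919, *Dlg1* at 0.0901, *Wwc1* at 0.0737 and *Fat1* at 0.0730. *Pard6b* was called in all 16 alternatives, with an adjusted p of at most 0.0307 from limma.

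**Figure D5:**
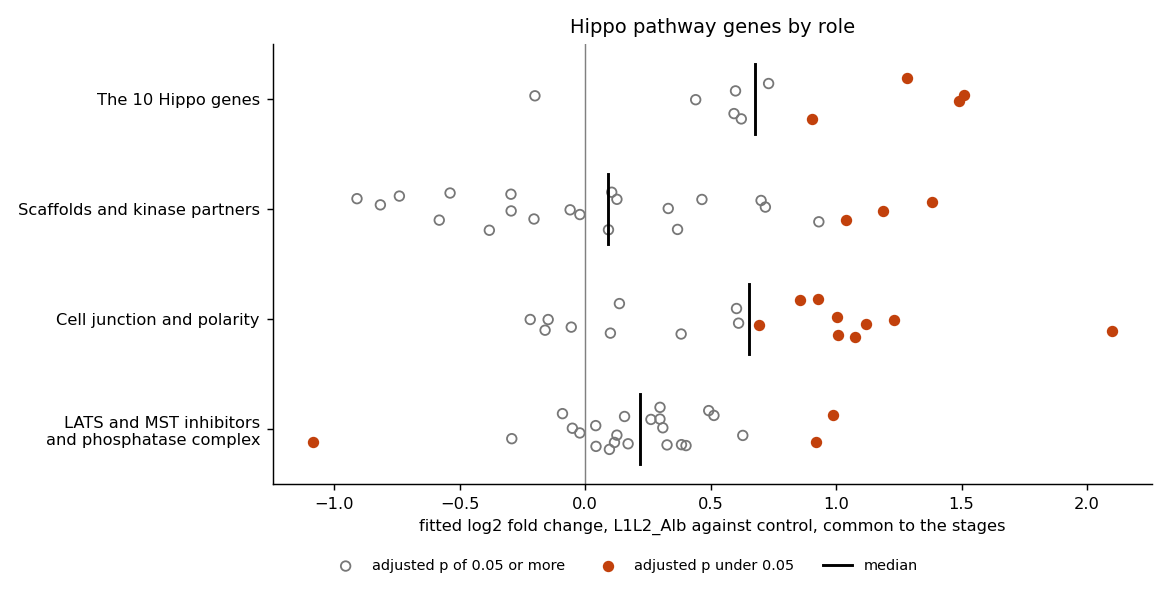
Fitted log2 fold change common to the stages for the 10 Hippo genes and for 65 further pathway genes by role, filled where the adjusted p from limma was under 0.05, with the median of each group as a bar. The medians are 0.68 for the 10 genes, 0.09 for scaffolds and kinase partners, 0.65 for cell junction and polarity genes and 0.22 for inhibitors and the phosphatase complex.

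For *Lats2* and *Amotl2*, the genes of the whole table with the closest pattern were found by the root mean square difference of log2(RPKM + 1) over the 8 libraries, each gene centred on its own mean. Nearest to *Lats2* were *Gng12*, a G protein subunit gene, at 0.0978, and the anti-apoptotic gene *Bcl2l1* at 0.0980. Also near were *Fam118b* at 0.134 and *A730085A09Rik* at 0.136, against a median of 0.635 over all genes tested. Nearest to *Amotl2* were *Pgf*, the placental growth factor gene, at 0.195, the integrin gene *Itgb6* at 0.248, *Nrip3* at 0.253, the transcription factor gene *Gata6* at 0.255 and *Zfp697* at 0.267, against a median of 0.925. *Pgf* was at 127 RPKM in L1L2_Alb iHB, and at 108 and 51.2 RPKM in the L1L2_Alb iHP pair, so its iHP pair was uneven too. These distances are a description over 8 libraries.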

How the data were processed

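RNA of 8 libraries, made with a TruSeq v2 kit from in vitro cultured hepatoblasts and their derivatives, was analysed. The authors deposited 1 table of 1 value per gene and library, which are RPKM by their whole-read steps, since the header names no unit. The submitters' processing notes name Bowtie 0.12.2 and the mm8 build, and the counting method and annotation are not given in the sources used here. RPKM are scaled for length and depth but not for composition between libraries. Of 23471 entries, 4 with repeated symbols (2 symbols) were left out. No genome of mm8 was used, so promoters are from RefSeq on GRCm38.p6, matched by symbol for 9 of the 10 genes. Library sizes came from genes of at most 400 bases at steps of 1 read, whole within 0.01.

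Values were changed to log2(RPKM + 1), with a pseudocount of 1, and genes whose mean reached 1 RPKM entered limma 3.58.1 under R 4.3.3 (eBayes with trend, two-sided, Benjamini-Hochberg over all genes tested). Fold changes on this scale understate the change of low genes. Every adjusted p is from limma. The alternatives were another pseudocount, scalings, filters, no trend, an adjusted p under 0.1, libraries or stages left out, pairs averaged, and the replicate number as a block. The members and lists were chosen with earlier results of these data known. All 10 genes are named, with up to 10 further pathway genes past the threshold by size of change, and 5 genes nearest to *Lats2* and to *Amotl2*. Results of 2 genes that these rules name are not reported here. The labels do not say whether libraries of a group are from separate embryos, so p-values measure the spread between these libraries, which may be technical. In the fits with stage and genotype, that spread also includes any difference of the genotype effect between stages. Treatment days are as in the labels. Scripts were tested on simulated data. Python 3.11.15, numpy 2.4.6, pandas 2.3.3, scipy 1.17.1 and matplotlib 3.10.9 were used.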

Additional observations from a re-analysis of the deposited data

Results flagged for a closer look

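*Nf2* values lay on opposite sides of the control in different stages. Every L1L2_Alb library of iHB and iHP was below the control of its stage and both L1L2_Alb iBEC libraries were above theirs. The fitted effect was -0.29 in iHB, -0.62 in iHP and 0.28 in iBEC, so the effect in iBEC exceeded that in iHB by 0.58 and that in iHP by 0.90 on the log2(RPKM + 1) scale. The limma F test over the stages gave *Nf2* an unadjusted p of 0.353, so the difference did not pass. Genes at large were higher in the same iBEC libraries, by a median of 0.22 and 0.26, and the *Nf2* effect in iBEC was 0.035 with upper-quartile scaling and 0.039 with quantile normalization, the first of which brings that median to 0.02 and 0.01. The effect in iHP was -0.997 without L1L2_Alb iHP replicate 1 and -0.24 without L1L2_Alb iHP replicate 2.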

How the results depend on the processing

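For the 10 genes and the 10 further pathway genes that the rules name, unreported results included, values were recomputed over 17 settings. Of 1017 values, 924 kept their direction and their side of the threshold. Of the others, 66 were no longer past it, 9 were newly past it and 18 changed sign. The longer *Lats2* transcript and the counts of pathway genes were added after seeing the data. The count of 4 genes called across the stages was 1 with no filter on low values, 2 without the iHB stage, 2 without the iHP stage and 1 without the iBEC stage, and 1 to 4 when a single L1L2_Alb library was left out (1 without L1L2_Alb iBEC replicate 2). In iHP the 1 call was 0 with no filter and 0 in each fit without a library. In iBECs against iHBs the count of 0 was 2 at an adjusted p under 0.1 and 0 to 1 without a library, and in iBECs against iHPs 2 at that threshold and 0 to 2 without a library. The 15 pathway genes called were 8 with no filter, 9 to 13 without a library, 2 without the iHB stage and 1 without the iHP stage. Over all genes 1284 calls became 686 with no filter, 326 without the iHB stage and 132 without the iHP stage.

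Signs changed as follows, none of them in a called value. Without the iHP stage *Nf2* was at 0.038 across the stages. *Sav1* in iBEC was at -0.058 with upper-quartile scaling and -0.053 with quantile normalization. For iHPs against iHBs the same 2 scalings gave *Lats1* 0.10 and 0.14 and *Frmd6* 0.047 and 0.059, and for iBECs against iHBs they gave *Nf2* 0.11 and 0.12. Without a single L1L2_Alb library, *Lats1* in iHP ran from -0.59 to 0.96, and iHPs against iHBs ran from -0.40 to 0.37 in *Lats1*, -0.0096 to 0.30 in *Lats2*, -0.044 to 0.43 in *Stk3*, -0.077 to 0.091 in *Stk4*, -0.015 to 0.038 in *Amotl1* and -0.59 to 0.037 in *Amotl2*. In iBECs against iHPs the range was -0.36 to 0.15 in *Stk3* and -0.084 to 0.33 in *Nf2*. The cause was not tested.

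The labels number the L1L2_Alb iHP and iBEC libraries 1 and 2. The difference between the numbers in iHP and that in iBEC had a correlation of -0.022 over 13421 genes. Whether libraries of the same number share an origin cannot be told from this, since their cultures also differ. With the replicate block the 10 genes had 4 calls across the stages, 1 in iBECs against iHPs (*Stk4*, adjusted p = 0.0449 from limma), and 0 in iHPs or iBECs against iHBs, and the pathway genes had 13, with *Stk26* not called (adjusted p = 0.0515). The block was not run for the contrasts within a stage. Counting intervals could be given for 8 of the 10 genes and not for *Lats2* and *Nf2*. Each stage has a single control library.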
